A study of Rattus norvegicus with 70 samples.

Results

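The comparison is between the livers of 3 female Sprague-Dawley rats given a mixture of 3 bisphenols (Mix) and those of 3 female rats given vehicle, 6 of the 70 libraries of the series. Members were the liver columns of the deposited read count table whose labels name these rats. The pregnant dams of the Mix rats received 500 mg/kg/day by mouth, starting on gestational day 6 and ending on lactation day 6. The dose was made of bisphenol A (BPA) at 160, bisphenol F (BPF) at 160 and bisphenol S (BPS) at 180 mg/kg/day, and the pups received 250 mg/kg/day of their dam's test substance from postnatal day 7 to postnatal day 63. Livers were taken at postnatal day 63. Beside them stood 3 female rats on BPA alone on the same schedule and at the same total dose, and the 9 male livers of the vehicle, BPA and Mix groups entered the fit for the sex difference. The vehicle, the litter of each pup, the stage of the oestrous cycle, the time of day and the last meal are not given in the labels, so pups of 1 dam may be among the 3 of a group, and p-values measure the spread between these rats. All 9 female livers had no read of Eif2s3y, a gene of the Y chromosome, while the 9 male livers of the study had between 10.07 and 22.98 CPM, the reads of a gene scaled to a common library size. Ddx3y, also on the Y chromosome, was low in both sexes and did not separate them. It was at 0.253 to 1.75 CPM in the female vehicle and Mix livers and 0 in the female BPA livers. In the male livers it was at 0.206 to 1.93 CPM.

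The liver makes bile acids from cholesterol, stores and releases glucose, and clears drugs and steroids, and a group of nuclear receptors ties these tasks to the level of bile acids, fats, hormones and foreign chemicals. Nr0b2, also called SHP, is an unusual member of that group that has no DNA-binding domain. It binds other receptors such as Nr5a2 and Hnf4a and damps their target genes, among them Cyp7a1, and it is itself switched on by the bile acid receptor Nr1h4. In the adult rat, many liver genes also differ between the sexes, largely through the pattern of growth hormone release.

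In female liver, 5 genes rose under Mix and none fell at an adjusted p below 0.05, and the 5 were Nr0b2, Rbp7, Lppr3, Pfkfb1 and Inmt. That is 0.0523% of the 9554 genes tested, by edgeR's quasi-likelihood test with Benjamini-Hochberg adjustment, and 632 genes had an unadjusted p below 0.05. All 5 start sites were found in RefSeq's promoter table for build GRCr8, Lppr3 through its current symbol Plppr3, while the counts themselves were made on rn6. The sequences of the Nr0b2 and Pfkfb1 starts are shown because these genes also differed between the sexes, and that of Inmt because its level under Mix lay apart from its level under BPA. Each run goes from 250 bases before to 50 bases after the start, 5′ to 3′ on the gene's own strand. Nr0b2 lies on the plus strand at chr5:151062910-151063209, Pfkfb1 on the plus strand at chrX:22941926-22942225 and Inmt on the minus strand at chr4:85652706-85653005. Capitals mark TCAAGG, the core of the site that Nr5a2 binds, and CACGTG, the E-box.
Nr0b2: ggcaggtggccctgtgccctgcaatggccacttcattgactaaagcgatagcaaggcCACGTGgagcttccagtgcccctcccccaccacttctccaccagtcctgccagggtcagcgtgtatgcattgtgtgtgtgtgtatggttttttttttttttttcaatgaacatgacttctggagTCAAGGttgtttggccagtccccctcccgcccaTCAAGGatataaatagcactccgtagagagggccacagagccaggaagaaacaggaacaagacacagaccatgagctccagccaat
Pfkfb1: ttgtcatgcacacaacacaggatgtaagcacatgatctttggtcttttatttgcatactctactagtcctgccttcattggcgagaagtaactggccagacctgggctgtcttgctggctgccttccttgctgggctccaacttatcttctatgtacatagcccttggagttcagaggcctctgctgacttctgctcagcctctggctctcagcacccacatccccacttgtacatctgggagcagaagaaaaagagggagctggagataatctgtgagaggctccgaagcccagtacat
Inmt: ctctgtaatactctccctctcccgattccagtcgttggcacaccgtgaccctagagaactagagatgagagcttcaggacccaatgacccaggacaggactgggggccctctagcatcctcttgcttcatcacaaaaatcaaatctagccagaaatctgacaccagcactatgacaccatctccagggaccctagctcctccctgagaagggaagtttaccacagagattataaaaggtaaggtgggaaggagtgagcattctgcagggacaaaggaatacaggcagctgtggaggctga

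The Nr0b2 window held TCAAGG at 2 places, starting 69 and 36 bases before the start of the gene, and CACGTG at 1 place, 193 bases before it. It also held 1 match to TTCNNNGAA, a STAT site, 92 bases before the start. The other 4 windows held none of these. TCAAGG was found in 14.8% of the 33469 promoters of the same length in the table, CACGTG in 6.42% and TTCNNNGAA in 8.87%, all on either strand. The nuclear receptor half-site AGGTCA, its extension TCAAGGTCA and the glucocorticoid receptor half-site AGAACA were in none of the 5 windows, against 16.2%, 0.433% and 20.7% of all promoters. TCAAGG was added to the search after TCAAGGTCA, which contains both it and AGGTCA, had given no match. These matches describe the letters only.

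Nr0b2 stood at 8.45, 7.39 and 7.07 CPM in vehicle rats 1, 2 and 3 and at 25.8, 34.1 and 29.6 CPM in Mix rats 1, 2 and 3. The groups were far apart and each was tight. The difference was 3.89-fold, a log2 fold change of 1.96 ± 0.25 (SE, n = 3 and 3), with an adjusted p of 0.0061 in edgeR's test. The BPA rats had 35.5, 26.1 and 22.1 CPM, the same range as Mix.

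Pfkfb1 encodes the liver form of the enzyme that makes and breaks down the fructose bisphosphate signal by which the cell chooses between glycolysis and glucose production. Its levels were 6.52, 7.99 and 10.8 CPM in the vehicle rats and 35.9, 19.2 and 54.6 CPM in the Mix rats. All 3 Mix livers were above all 3 vehicle livers, with a wider spread among the Mix rats. It rose 4.33-fold, with a log2 fold change of 2.12 ± 0.33 and an edgeR adjusted p of 0.0370.

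Inmt methylates indole amines such as tryptamine. It was near the bottom of the measurable range in the vehicle livers, with 7, 5 and 4 reads, or 0.845, 0.754 and 0.577 CPM. The Mix livers had 67, 39 and 68 reads, or 7.42, 5.05 and 8.29 CPM. It rose 9.31-fold, with a log2 fold change of 3.22 ± 0.52 and an edgeR adjusted p of 0.0382. In the BPA rats its level was 44.0, 13.3 and 46.6 CPM, so no BPA liver was as low as any Mix liver.

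Rbp7 is a small carrier protein that holds retinol inside cells. The vehicle livers had 5, 5 and 7 reads of it, or 0.604, 0.754 and 1.01 CPM, and the Mix livers had 26.9, 15.7 and 10.1 CPM. It rose 22.1-fold, with a log2 fold change of 4.46 ± 0.57 and an edgeR adjusted p of 0.0061. Lppr3 belongs to a family of membrane proteins related to the lipid phosphate phosphatases and is known mostly from neurons. It had 5, 8 and 9 reads in the vehicle livers, or 0.604, 1.21 and 1.30 CPM, and 52.0, 29.9 and 9.38 CPM in the Mix livers. The Mix rats differed among themselves more than for any other of the 5 genes, but the lowest of them was still far above the highest vehicle rat. Lppr3 rose 29.5-fold, with a log2 fold change of 4.88 ± 0.66 and an edgeR adjusted p of 0.00905. With so few reads in the vehicle livers, Inmt, Rbp7 and Lppr3 passed the filter on low counts through the treated rats, and their folds carry the counting error of 16, 17 and 22 vehicle reads in all.

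**Figure D1:**
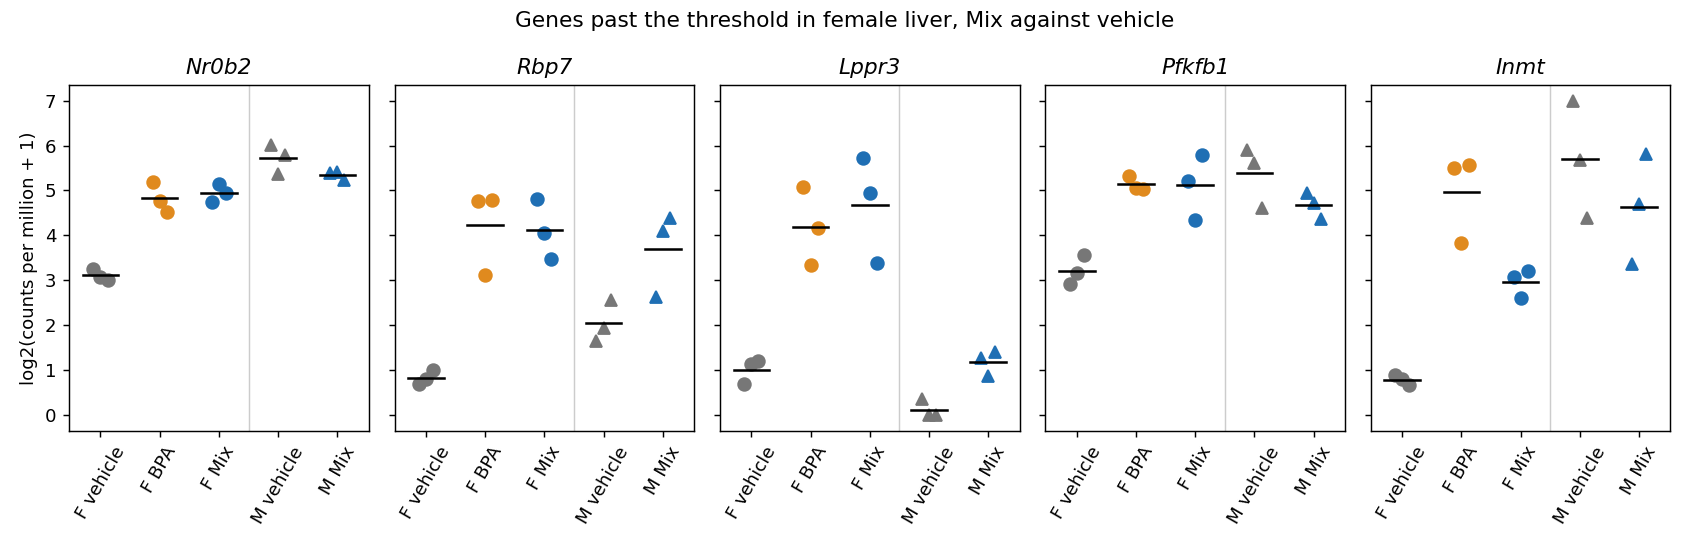
Level of the 5 genes that rose under Mix, as log2(CPM + 1), in each liver; circles are female rats (F), triangles male rats (M), and black lines the mean of 3. Every F Mix point lies above every F vehicle point, and the F BPA points lie with the F Mix points except for Inmt, where they are higher; CPM of the 2 sexes were scaled in separate fits.

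Calls changed with single rats. Without vehicle rat 2 no gene passed edgeR's test, with 436 at an unadjusted p below 0.05, and without vehicle rat 1 Nr0b2 alone of the 5 did. Without Mix rat 1 or Mix rat 3 the calls of Nr0b2, Rbp7 and Lppr3 held, and those of Pfkfb1 and Inmt did not. Inmt was also lost without vehicle rat 3 and with the ribosomal RNA share of each library in the model. That share was between 13.94% and 24.16% in the vehicle livers and between 18.28% and 20.65% in the Mix livers. Library totals ran from 7433964 to 8295686 reads in vehicle and from 7919230 to 8375110 in Mix. The log2 fold changes kept their sign under every alternative run, from 1.85 to 2.05 for Nr0b2, from 1.71 to 2.42 for Pfkfb1, from 3.07 to 3.40 for Inmt, from 4.01 to 4.74 for Rbp7 and from 4.25 to 5.31 for Lppr3.

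Of all genes tested, the 5 included, 731 (7.65%) had all 3 Mix livers above all 3 vehicle livers and 661 (6.92%) had them all below. Next after the 5 came, in each direction, the 12 genes with the smallest p among those with a mean log2 CPM of 2 or more over the 9 livers and groups that did not overlap. They had edgeR adjusted p between 0.0659 and 0.280, and none passed. Some of the higher ones, such as Slc5a1 and Cacna1a, had few reads in the vehicle livers. DESeq2 called 50 of the 9554 genes, 33 up and 17 down, among them all 5 above, 10 of these 12 higher genes and all 12 lower genes. Both tests used the same libraries, and these genes were picked for small p in them, so this overlap is not independent support.

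Among the higher ones, Hsd11b1, which regenerates active glucocorticoid from its inert form in the liver, stood at 18.7, 23.2 and 24.5 CPM in vehicle and at 55.4, 104 and 92.1 CPM in Mix. The fitted log2 difference was 1.92 ± 0.39 (SE), with an edgeR adjusted p of 0.131. Slc39a5, a zinc transporter, was at 2.29, 2.71 and 2.74 CPM in vehicle and 8.97, 10.6 and 7.07 CPM in Mix. Pdia5, a protein disulphide isomerase of the endoplasmic reticulum, was at 3.86, 8.75 and 28.4 CPM in vehicle, where rat 3 was well above the other two, and at 80.2, 105 and 67.6 CPM in Mix. Hes1, a repressor downstream of Notch, was at 43.2, 41.0 and 38.4 CPM in vehicle and 80.3, 69.9 and 81.3 CPM in Mix, and both groups were tight. Acnat2, an acyl transferase of peroxisomes, was at 11.956, 5.13 and 7.94 CPM in vehicle and 32.4, 23.7 and 16.8 CPM in Mix. Slc5a1, the sodium-glucose cotransporter of gut and kidney, had 2, 0 and 0 reads in the vehicle livers and 193, 77 and 19 reads in the Mix livers, so no fold is given for it. The plasma protein gene Orm1 had 1289, 2033 and 3946 CPM in vehicle and 9092, 12796 and 9865 CPM in Mix, a log2 difference of 2.13 ± 0.50 with an edgeR adjusted p of 0.251. Of the rest, Tmem98, Tpst1, Pm20d2, Eif4ebp3 and Cacna1a, Cacna1a had the highest log2 difference, at 2.79, and Tpst1 the lowest, at 1.24.

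Among the lower ones, Dusp6, the phosphatase that switches off ERK kinases, was at 313, 254 and 266 CPM in vehicle and 142, 125 and 99.5 CPM in Mix. The log2 difference was -1.19 ± 0.21 (SE), with an edgeR adjusted p of 0.0659. The complement gene C6 was at 100, 141 and 161 CPM in vehicle and 57.1, 49.0 and 64.2 CPM in Mix. Akr1b7, an aldo-keto reductase, was at 298, 291 and 205 CPM in vehicle and 132, 126.5 and 107 CPM in Mix, and it was all but unread in male livers, where the highest of 6 was 0.406 CPM. Rgn, a calcium-binding enzyme of hepatocytes, was at 252, 216 and 150 CPM in vehicle and 99.2, 63.4 and 110 CPM in Mix. Cish, a feedback inhibitor that STAT5 switches on after a growth hormone pulse, was at 23.2, 17.3 and 14.4 CPM in vehicle and 3.99, 8.30 and 4.14 CPM in Mix. The heat shock genes Hspa1a and Hspa1b are near-identical copies whose reads can be split between them, and their log2 differences were -1.45 and -1.60. Vwf, the endothelial clotting factor, had 56, 54 and 34 reads in vehicle and 18, 8 and 11 in Mix. For the others, Adh7, Hmgcs1, Ifi47 and Fam213b, the log2 difference was between -1.42 for Ifi47 and -0.82 for Fam213b.

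**Figure D2:**
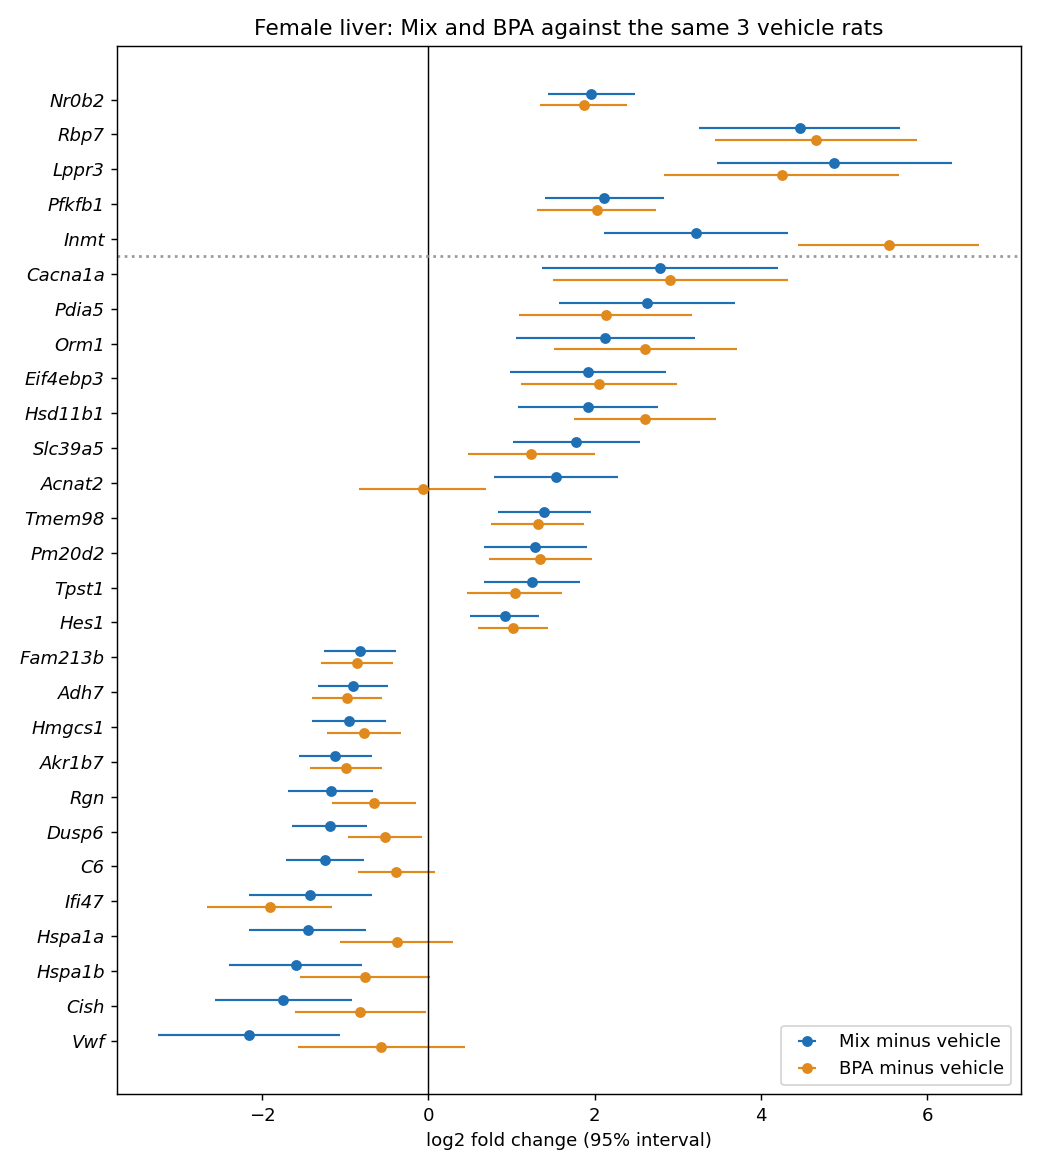
Log2 fold change against the 3 vehicle rats, with 95% interval, for Mix (blue) and BPA (orange): the 5 genes past the threshold under Mix above the dotted line, and the next 11 higher and 12 lower genes under it (Slc5a1 is left out). Mix and BPA points lie on the same side of 0 for every gene drawn but Acnat2, and both are measured from the same vehicle libraries.

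BPA alone changed 40 of the 9554 genes (0.419%), 24 up and 16 down, by the same test, and all 5 of the genes that rose under Mix were among the 24. Both treatments are set against the same 3 vehicle livers, so a likeness between them is not independent, and the direct fold between Mix and BPA does not use the vehicle levels, although the vehicle livers share in the scaling, the filter and the estimate of spread. Without vehicle rat 3 or vehicle rat 2, 7 and 2 genes passed between Mix and BPA. Mix and BPA were given at the same total dose, and BPF and BPS replaced part of the BPA in Mix. BPF and BPS differ from BPA in the bridge between the phenol rings, which is a methylene group in BPF and a sulphonyl group in BPS, in place of the isopropylidene group of BPA. Neither was given alone.

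No gene passed edgeR's test between Mix and BPA (0 of 9554, 0%), while 621 had an unadjusted p below 0.05 and DESeq2 called 39. For Nr0b2 the log2 difference, Mix minus BPA, was 0.09 with a 95% interval from -0.39 to 0.58, and for Pfkfb1 it was 0.09 from -0.57 to 0.76. Rbp7 gave -0.20 from -1.10 to 0.71 and Lppr3 gave 0.63 from -0.44 to 1.70, and these intervals are wider than those of Nr0b2 and Pfkfb1. Inmt was lower under Mix than under BPA by the values given above, a log2 difference of -2.32 from -3.16 to -1.47, and its edgeR adjusted p was 0.0853.

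The 3 genes with the smallest p between Mix and BPA were Gpnmb, Lifr and Pcdh18. Gpnmb, a glycoprotein of macrophages, was at 5.54, 7.52 and 6.46 CPM in Mix and 17.1, 24.6 and 24.4 CPM in BPA, with 9.06, 8.90 and 10.4 CPM in vehicle. Lifr, the receptor of leukaemia inhibitory factor, was at 180, 226 and 125.98 CPM in Mix and 66.0, 48.2 and 42.1 CPM in BPA, with 132, 195 and 243 CPM in vehicle. The Mix livers thus overlapped the vehicle livers for Lifr and lay just under them for Gpnmb. Pcdh18, a protocadherin, was at 21.7, 34.0 and 16.6 CPM in Mix and 6.08, 8.34 and 5.41 CPM in BPA. Their edgeR adjusted p were 0.0612, 0.0612 and 0.0648.

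The glucose genes held 1 of the 5 calls. Of 19 tested members of the glucose and glycogen metabolism list, Pfkfb1 rose and none fell, against 0.0523% called of all genes. The list was chosen with earlier results of these data known, so nothing is read from that count. The median log2 difference was 0.05, against 0.005 over all genes. G6pc, the last enzyme of glucose release, was at 577, 502 and 567 CPM in vehicle and 1522, 1362 and 1247 CPM in Mix, which do not overlap. Its log2 difference was 1.33 ± 0.32 (SE) and its edgeR adjusted p was 0.251. Pck1, which starts gluconeogenesis from oxaloacetate, was at 1858, 1110 and 836 CPM in vehicle and 1799, 2456 and 2570 CPM in Mix, and the groups overlapped. Ppp1r3c, which directs phosphatase to glycogen, was at 119, 129 and 152 CPM in vehicle and 95.8, 91.6 and 76.9 CPM in Mix.

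For the nuclear receptors themselves, Nr0b2 was the 1 that rose of 13 tested, against 0.0523% called of all genes. This list too was chosen with earlier results known, and nothing is read from its count. The median log2 difference was 0.01. Esrra, an orphan receptor of energy metabolism, was at 104, 105 and 136 CPM in vehicle and 164, 172 and 178 CPM in Mix, with an edgeR adjusted p of 0.613. Nr1i3, the receptor CAR, ranged from 4.33 to 4.98 CPM in vehicle and from 3.4995 to 16.8 CPM in Mix. Among 12 bile acid synthesis genes none passed. Cyp7a1, the rate-limiting enzyme, was at 30.9, 10.9 and 32.8 CPM in vehicle and 153, 45.6 and 47.4 CPM in Mix, a log2 difference of 1.72 ± 0.64 (SE) with an edgeR adjusted p of 0.616, and Mix rat 1 stood apart from the other two. Hsd3b7 and Acox2 had log2 differences of 1.07 and 0.65, and Slc27a5, which activates bile acids for conjugation, had -0.59. Of 11 genes of bile acid and sterol transport, 9 had a negative log2 difference and none passed, with a median of -0.33. In that list Abcg8, a sterol exporter, was at 9.18, 10.1 and 8.52 CPM in vehicle and 3.99, 2.72 and 3.41 CPM in Mix, and Slc10a1, the bile acid uptake carrier, ranged from 490 to 519 CPM in vehicle and from 212 to 499 CPM in Mix.

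The 24 cholesterol synthesis genes tested had the lowest median of the lists with over 10 tested genes, at -0.40, and 20 of them had a negative log2 difference. None passed the test over all genes. In 9 of the 24 (37.5%) all Mix livers were below all vehicle livers, against 6.92% of all genes, and 8 had an unadjusted p below 0.05, as had 6.615% of all genes. Hmgcs1, which makes the first committed intermediate, was at 242, 216 and 321 CPM in vehicle and 161, 112.4 and 129 CPM in Mix, with a log2 difference of -0.95 ± 0.21 (SE) and an edgeR adjusted p of 0.173. Fdps, which makes farnesyl diphosphate, was at 80.9, 126.4 and 169 CPM in vehicle and 55.9, 71.9 and 69.3 CPM in Mix. The list's median was -0.18 for BPA against the same vehicle rats and -0.43 for Mix in male liver. Fatty acid synthesis genes had a median of -0.10, and none passed. All Mix livers were below vehicle for 4 of 13 (30.8%, against 6.92% of all genes), namely Fads1, Me1, Thrsp and Mlxipl.

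Targets of the receptors that sense foreign chemicals showed no call. Of 21 CAR and PXR targets none passed and the median was -0.13. Cyp3a62 was at 5.43, 5.28 and 8.37 CPM in vehicle and 15.1, 11.02 and 14.0 CPM in Mix. Abcb1a, a drug exporter, was lower in all Mix livers, at 46.1, 42.1 and 40.6 CPM in vehicle and 26.4, 25.4 and 29.9 CPM in Mix, while Cyp2b3 and Gsta2 overlapped between the groups. The 31 PPAR alpha targets had a median of 0.03. In that list Acot1, a fatty acyl thioesterase, was at 3.38, 7.69 and 8.81 CPM in vehicle and 109, 28.9 and 42.6 CPM in Mix, and Cd36, a fatty acid carrier, was at 22.1, 26.5 and 32.0 CPM in vehicle and 12.4, 7.91 and 11.3 CPM in Mix. Their edgeR adjusted p were 0.294 and 0.439. Of the 8 aryl hydrocarbon receptor targets 2 had enough reads to test. Cyp1a2 was at 1803, 1505 and 1397 CPM in vehicle and 989, 811 and 739 CPM in Mix, and Nqo1, which NRF2 also controls, was at 47.1, 52.3 and 26.7 CPM in vehicle and 6.53, 26.1 and 18.03 CPM in Mix. Both had all Mix livers below all vehicle livers, as had 6.92% of all genes, and neither passed. The 17 NRF2 targets and the 15 conjugating enzymes held no call, with medians of -0.22 and -0.30. Sult2a1 and Sult2a6, sulphotransferases of steroids and bile acids whose reads a close paralog may share, had log2 differences of -0.64 and -0.72.

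The methyltransferase list held Inmt as its call among 12 tested, the retinoid list Rbp7 among 15, and the lipid phosphate phosphatase family Lppr3 among 7. Of all genes, 0.0523% were called. The lists were chosen with earlier results of these data known, so nothing is read from these counts. Bhmt, which remakes methionine from betaine, was at 994, 674 and 1238 CPM in vehicle and 1773, 2037 and 2696 CPM in Mix, with an edgeR adjusted p of 0.475. Ppapdc3, a relative of Lppr3, was at 0.483, 0.603 and 0.722 CPM in vehicle and 2.10, 3.76 and 2.80 CPM in Mix. Of the retinoid genes other than Rbp7, none had an unadjusted p below 0.05. The named Rara, Rarb and Rdh11 had log2 differences of 0.50, 0.27 and -0.31.

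Hormone and stress genes gave no call either. The 17 glucocorticoid-induced genes had a median log2 difference of 0.40 in female liver, and 6 (35.3%, against 6.615% of all genes) had an unadjusted p below 0.05, led by Sds, a serine dehydratase, at 7.73, 11.8 and 1.30 CPM in vehicle and 18.3, 108 and 34.7 CPM in Mix. The same list had a median of -0.74 for Mix in male liver. The 12 clock genes had a median of 0.37, and Nr1d1, a repressor in the clock, was at 1.81, 1.21 and 1.59 CPM in vehicle and 3.65, 4.15 and 3.66 CPM in Mix. Npas2 and Cry2 also had all Mix livers above vehicle, with log2 differences of 1.52 and 0.48. With Nr1d1 this held for 3 of the 12 (25%, against 7.65% of all genes), at edgeR adjusted p from 0.664 to 0.796. Npas2 was low in vehicle, at 0.966 to 1.36 CPM. Of 19 genes of endoplasmic reticulum stress, 13 were negative, with Herpud1 at -0.91 and Atf4 at -0.60. In the acute phase list Orm1 stood against Cp, Hp and Itih4, whose log2 differences were -0.63, -0.50 and -0.53.

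Sex-biased genes were taken from BPA livers of both sexes, which lie outside the Mix against vehicle contrast. There, 84 genes were higher in females, Lppr3 among them by 3.41 on the log2 scale, and 84 were higher in males. Lppr3 was itself higher under BPA than under vehicle in females, so its place in that set describes BPA livers and not untreated ones. It was the 1 call among the 84, against 0.0523% of all genes, and nothing is read from it. The median Mix minus vehicle difference was -0.08 for the first set and -0.02 for the second. Of 10 known female-biased genes, 8 were negative, with a median of -0.51. Of 10 known male-biased genes, 6 were negative, with a median of -0.09, and 49.46% of all genes were negative. All Mix livers were below vehicle for Sult2a6, Sult2a1 and Srd5a1 among the female-biased (30%) and for Slco1a1 and Rup2 among the male-biased (20%). The share over all genes was 6.92%, and no gene of these lists of known genes passed the test. Among the female-biased genes A1bg, a plasma protein gene, was at 2128, 2348 and 1715 CPM in vehicle and 410, 1807 and 409 CPM in Mix, where Mix rat 2 lay within the vehicle range and the others far below. Srd5a1, a steroid reductase, was at 723, 860 and 743 CPM in vehicle and 247, 533 and 592 CPM in Mix. Akr1c2 was read at 1.45, 266 and 2.17 CPM in vehicle and 1.22, 0.648 and 2.56 CPM in Mix, so its negative fold rests on vehicle rat 2, and its paralog Akr1c1 had the same rat apart at 43.7 CPM.

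In these bulk livers, fewer cells of a type and less RNA per cell cannot be told apart. All 11 hepatocyte markers had enough reads to test, and Alb, the albumin gene, was at 108060, 99764 and 86561 CPM in vehicle and 43747, 82595 and 68528 CPM in Mix. Summed, the hepatocyte list took 130100 to 159400 CPM of the vehicle libraries and 89270 to 125500 CPM of the Mix libraries, and Alb made up most of both sums. On library totals, as used for these sums, Alb ran from 78690 to 107900 CPM in vehicle. In Mix it ran from 47170 to 80470 CPM, so on that scale the groups overlapped. With CPM scaled by TMM factors, members went both ways. All Mix livers were below vehicle for 3 of the 11 (27.3%, against 6.92% of all genes), namely Alb, Tf and Apob. They were all above for 3 (27.3%, against 7.65% of all genes), namely Ass1, Apoa1 and Cps1. Ass1, an enzyme of the urea cycle, was at 880, 753 and 689 CPM in vehicle and 1212, 1360 and 1261 CPM in Mix. Periportal markers summed to 2762 to 4340 CPM in vehicle and 4714 to 5784 CPM in Mix, while the pericentral sums overlapped, at 4027 to 8985 and 4330 to 5833 CPM. Pck1, Ass1 and Arg1 made up most of the periportal sum. Of its 9 members 5 had a positive and 4 a negative log2 difference. On library totals Arg1, Hsd17b13, Cdh1, Hal and Gls2 overlapped between the groups, and Pck1, Ass1, Cps1 and Sds did not. Cyp2e1 made up most of the pericentral sum. With CPM scaled by TMM factors, 3 of the 8 members tested (37.5%, against 6.92% of all genes), Rgn, Cyp1a2 and Glul, had all Mix livers below vehicle. On library totals Glul overlapped, at 85.31 to 107.2 CPM in vehicle and 58.59 to 99.94 CPM in Mix. Kupffer cell and macrophage markers had a negative log2 difference in 11 of 12, with a median of -0.35 and sums of 636.5 to 715.7 CPM in vehicle and 544.2 to 605.4 CPM in Mix. Single markers mostly overlapped. On library totals Vsig4 alone did not, at 45.93 to 50.92 CPM in vehicle and 36.3 to 40.66 CPM in Mix. With CPM scaled by TMM factors, 3 of the 12 (25%, against 6.92% of all genes) had all Mix livers below vehicle. The 22 MHC and interferon genes had a median of -0.21, and 6 of them (27.3%, against 6.92% of all genes) had all Mix livers below vehicle, with Cd74 at 174, 188 and 153 CPM in vehicle and 107, 103 and 117 CPM in Mix. The part of these cells in the genes above was not tested. Some genes known from other organs were read in these livers. Tg, the thyroglobulin gene, was at 47.956 CPM in Mix rat 2 and at most 3.41 CPM in the other 5 livers, and Tnp1, a spermatid gene, was at 17.8 CPM in vehicle rat 1 and at most 5.70 CPM in the other 5. Cpa1, a pancreas enzyme, was at 39.4, 38.6 and 4.76 CPM in vehicle and 35.2, 175 and 101 CPM in Mix, while the pancreas genes Prss1, Ctrb1 and Pnlip were at 0 in all 6.

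**Figure D3:**
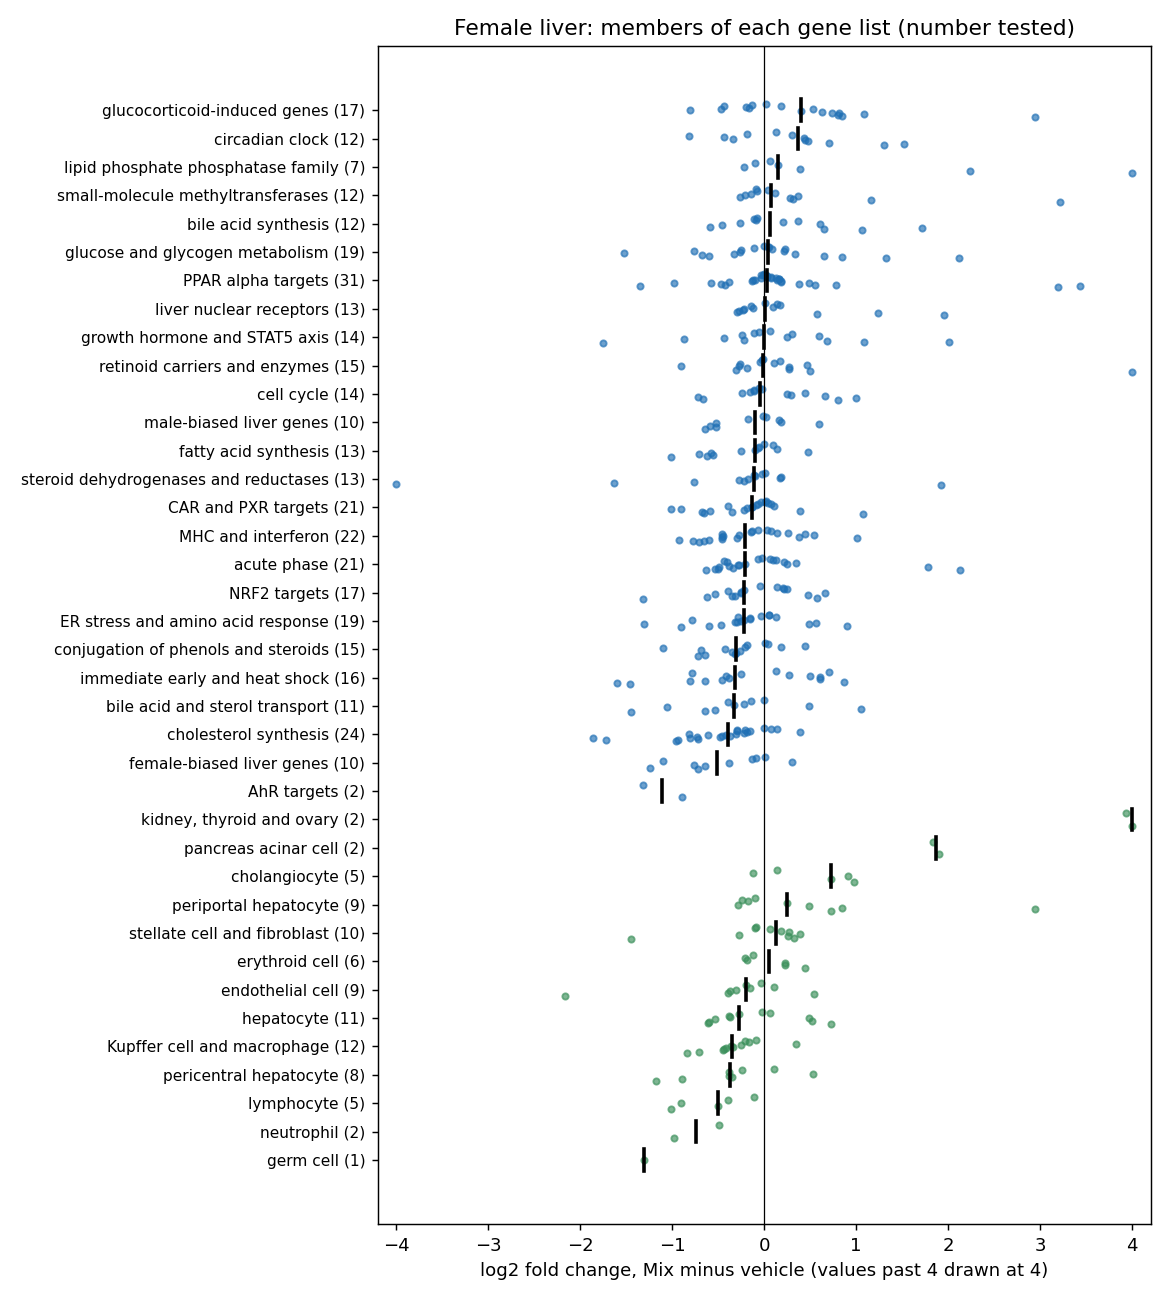
Log2 fold change, Mix minus vehicle, of each tested member of the gene lists (blue, pathways; green, cell type and organ markers), with the median of each list as a black bar. The cholesterol synthesis members lie mostly left of 0, with a median of -0.40, and the glucocorticoid-induced members mostly right, with a median of 0.40.

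The Mix response differed between the sexes for 19 of 10044 genes (0.189%), by the interaction term of a fit over all 18 livers, with 15 more positive in females and 4 more negative. Nr0b2 and Pfkfb1 were among the 15. In male livers Nr0b2 was at 63.6, 40.3 and 54.7 CPM in vehicle and 40.9, 41.5 and 36.5 CPM in Mix, so vehicle males stood well above vehicle females. The female minus male difference in the log2 Mix effect was 2.37 ± 0.36 (SE), with an edgeR adjusted p of 0.00350. Pfkfb1 was at 59.2, 48.1 and 23.4 CPM in male vehicle livers and 29.7, 25.5 and 19.7 CPM in male Mix livers. Its difference between the sexes was 2.92 ± 0.48, with an edgeR adjusted p of 0.00811. For Pfkfb1 the levels of the female Mix livers came within or near the range of the 6 male vehicle and Mix livers. For Nr0b2 they came nearer to that range but stayed below all 6, at 25.1 to 33.1 CPM in the fit over 18 livers. The female vehicle livers were below all 6 for both genes.

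Inmt spread widely in males, at 126.9, 50.4 and 20.1 CPM in vehicle and 9.35, 24.8 and 54.9 CPM in Mix, and its sex difference of 4.36 ± 1.01 had an edgeR adjusted p of 0.102. Rbp7 went the same way in both sexes, at 2.14, 2.82 and 4.91 CPM in male vehicle and 5.14, 16.0 and 19.9 CPM in male Mix livers, with an edgeR adjusted p of 0.0928 for the male difference and 0.516 for the sex difference. Lppr3 was near 0 in all male vehicle livers, at 0.279, 0 and 0 CPM, and at 1.4028, 0.813 and 1.66 CPM in male Mix livers.

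Of the other genes with a sex difference, Usp2, Mfsd2a, Tsc22d3 and Cdkn1a passed the test in male liver, and none of them in female liver. Under Mix, 32 genes (0.319%) changed in male liver in the same fit, 11 up and 21 down. Usp2, a deubiquitinase under clock and glucocorticoid control, was at 73.4, 62.0 and 35.9 CPM in male vehicle and 3.62, 3.52 and 8.19 CPM in male Mix livers. In females it was at 29.3, 23.8 and 11.1 CPM in vehicle and 32.4, 20.5 and 40.3 CPM in Mix, and the groups overlapped. Tsc22d3, also called GILZ and induced by glucocorticoids, was at 52.5, 54.1 and 53.0 CPM in female vehicle and 54.4, 36.2 and 71.9 CPM in female Mix livers, and its female log2 difference was 0.03 with a 95% interval from -0.49 to 0.54. Mfsd2a, a lipid transporter, ranged from 74.3 to 121 CPM in female vehicle and from 115 to 154 CPM in female Mix livers. Cdkn1a, the cell cycle inhibitor p21, was at 41.2, 44.6 and 35.1 CPM in female vehicle and 89.3, 57.4 and 64.7 CPM in female Mix livers, which do not overlap, with an edgeR adjusted p of 0.664. The ribosomal RNA share ran from 2.51% to 23.4% across the male vehicle livers and from 4.59% to 19.7% across the male Mix livers, and 12 genes passed the test of the sex difference with this share in the model, against 19 without it.

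**Figure D4:**
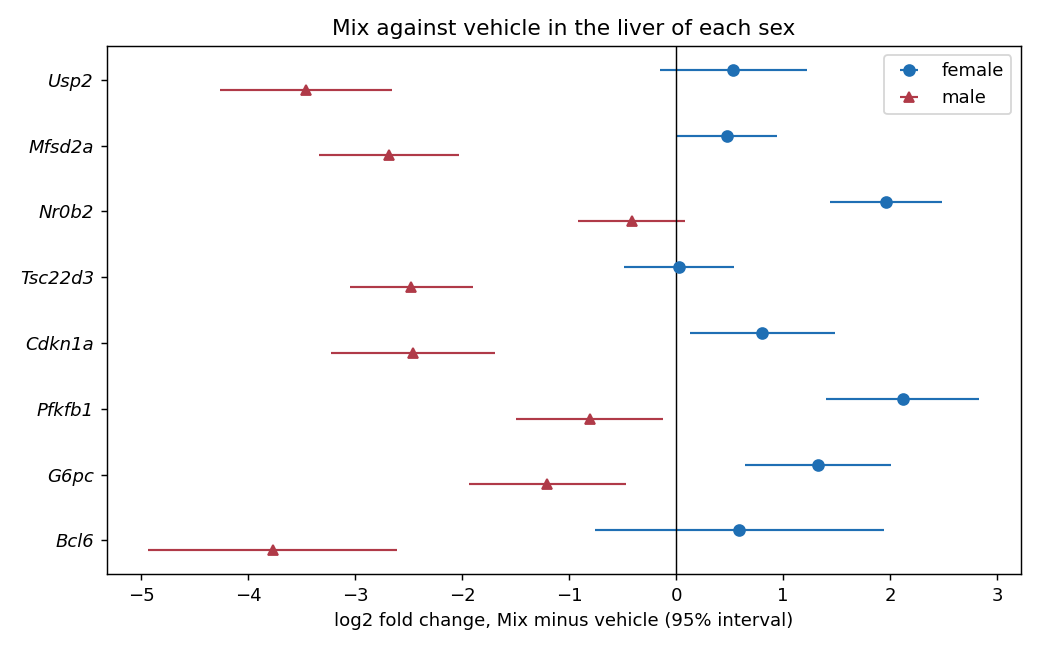
Log2 fold change, Mix minus vehicle, with 95% interval, in female (blue circles, fit over 9 female livers) and male liver (red triangles, fit over 18 livers) for 8 genes with a sex difference. Nr0b2 and Pfkfb1 lie right of 0 in females, and Usp2, Mfsd2a, Tsc22d3, Cdkn1a and Bcl6 lie far left of 0 in males.

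In the other organs of the female rats, none of the 5 genes passed the test between Mix and vehicle. The ovary had many calls, 991 of 10871 genes (9.12%), the thyroid 1 of 11127 (0.00899%) and the kidney 0 of 10681 (0%). At an unadjusted p below 0.05 in edgeR's test there were 2767 genes in ovary, 2561 in thyroid and 1111 in kidney, where the vehicle group had 2 libraries. Nr0b2 was read at 2.61 to 5.57 CPM in vehicle ovaries and 2.55 to 9.76 CPM in Mix ovaries, at 5.06 to 7.12 and 1.99 to 6.27 CPM in kidneys, and at 0 to 4.03 and 0 to 1.27 CPM in thyroids. Inmt was at 32.1 to 76.6 CPM in vehicle kidneys and 29.6 to 60.9 CPM in Mix kidneys, and Lppr3 at 25.5 to 68.8 and 43.3 to 83.0 CPM in thyroids, well above the vehicle livers for both genes. Pfkfb1 had too few reads to be tested in ovary and kidney.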

How the data were processed

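RNA was extracted with TRIzol and sequenced from QuantSeq 3′ libraries, per the labels' protocols. FastQC, Bowtie2, bedtools, edgeR and the build rn6 are named in the submitters' processing notes, with no versions. The authors deposited 1 table of read counts per gene, not normalized, with 17048 rows for 70 libraries, and 149 symbols stand in 316 rows. Strand handling and the annotation are not given in the sources used here. The 9 female livers were fitted with edgeR 4.0.16 in R 4.3.3 (filterByExpr by group, TMM, glmQLFit, glmQLFTest) and adjusted over 9554 genes by Benjamini-Hochberg at 0.05. The sex difference was fitted over all 18 livers, and each other organ alone. CPM are scaled by TMM factors, and sums of marker lists by library totals. DESeq2 1.42.0 was an alternative. The scripts were tested on simulated data for Mix against vehicle in female liver. There the test called 34.38% of genes changed 2-fold and 82.65% of those changed 4-fold, with 7 false calls. In that simulation 100 genes were changed at each fold, while 5 genes passed in the real data. With fewer genes passing, the adjusted threshold is stricter, so these shares do not carry over to the real comparison. A gene without a call may thus still have changed 2-fold or 4-fold. Orm1 and Acot1 had log2 differences of 2.13 and 3.19 without a call, at edgeR adjusted p of 0.251 and 0.294. Reads of 3′ tags are not scaled by length, so levels of different genes are not compared.

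The comparison and the gene lists were chosen with earlier results of these data known. Genes were named by a rule: every gene past the threshold, then up to 12 in each direction with the smallest p among genes with a unique symbol, a mean log2 CPM of 2 or more and groups that do not overlap, then up to 4 members of each list, 2 of each marker list, and up to 5 from the sex difference and from Mix against BPA (3 where none passed). Some genes that the rule names are not reported here. Same-numbered Mix and vehicle rats did not deviate together, with correlations of -0.072, 0.033 and -0.068, so the numbers were not taken as pairs.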

Additional observations from a re-analysis of the deposited data

Results flagged for a closer look

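The Mix effect differed between female and male liver, by the interaction term of edgeR's fit, for 8 of the genes named here. The female minus male difference in log2 fold change was 4.00 for Usp2, 3.16 for Mfsd2a, 2.37 for Nr0b2, 2.495 for Tsc22d3, 3.26 for Cdkn1a, 2.92 for Pfkfb1, 2.53 for G6pc and 4.37 for Bcl6. The edgeR adjusted p ran from 0.0013 for Usp2 to 0.0322 for G6pc. For Nr0b2 and Pfkfb1 the female livers changed in their own fit, while Usp2, Mfsd2a, Tsc22d3, Cdkn1a and Bcl6 changed in male livers, and G6pc passed in neither sex alone. Bcl6, a repressor known for its sex difference in rodent liver, was at 24.8, 40.1 and 27.5 CPM in male vehicle and 0.351, 2.71 and 3.63 CPM in male Mix livers, and at most 3.99 CPM in female vehicle and Mix livers. The differences for Usp2, Mfsd2a, Nr0b2, Tsc22d3, Cdkn1a and Pfkfb1 passed in all 19 alternatives run for each.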

How the results depend on the processing

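The count of 5 genes was the same with RLE or upper quartile scaling, 5 with the ribosomal RNA share as a covariate (Inmt was lost and another gene gained), and 6 with a filter of 10 counts in every library of a group. It was 50 with DESeq2, 109 with no filter and 21 with only the 2 groups compared, and from 0 to 11 when 1 library was left out. The 5 genes themselves passed under DESeq2, with no filter and with 2 groups. Mix against BPA went from 0 to 39 with DESeq2, 86 with no filter and 3 with only 2 groups, and from 0 to 7 with 1 library left out. BPA against vehicle went from 40 to 195 with DESeq2, 229 with no filter, 21 with the ribosomal RNA covariate, 14 with 2 groups, and from 8 to 41 with 1 library left out. The sex difference went from 19 to 52 with DESeq2, 74 with no filter, 12 with the covariate, and from 7 to 36 with 1 library left out. A replicate block, for numbers that do not pair the rats, gave 6 genes for Mix against vehicle, 5 for Mix against BPA, 19 for BPA against vehicle and 15 for the sex difference. Of 2373 values of named genes under alternatives, 2242 kept sign and side of the threshold, 15 lost the call, 7 changed sign and the rest gained a call. Of 561 medians of lists, 532 moved by little and 29 by more. Sign changes came from leaving out 1 library: Akr1c1 (0.049, range -2.06 to 0.049) without vehicle rat 2, Lyve1 (-0.10, range -0.10 to 0.28) without Mix rat 2, S100a8 (0.83, range -0.93 to 0.83), Prf1 (0.48, range -0.57 to 0.48) and Tnp1 (0.35, range -2.11 to 0.35) without vehicle rat 1, Prf1 (0.15) without Mix rat 3, and the sex difference of Lppr3 (-1.58, range -1.58 to 1.97) without male vehicle rat 1. For Akr1c2 the log2 difference ran from -6.54 to -0.27. The cause of the moves in counts was not tested. With 1 rat fewer, its group of 2 is assumed to vary like the others.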

Other observations

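Other cell types of the liver showed no gene past the threshold. Stellate cell and fibroblast markers had a median log2 difference of 0.13 over 10 genes, and Col3a1 ranged from 82.6 CPM in vehicle to 141 CPM in Mix, with groups that overlapped. Of 5 cholangiocyte markers 4 were positive, and Epcam was at 3.74, 3.47 and 5.49 CPM in vehicle and 6.98, 6.87 and 11.1 CPM in Mix. Lymphocyte markers were negative in 5 of 5 tested, with Gzma at 5.68, 6.33 and 5.05 CPM in vehicle and 2.99, 4.41 and 4.63 CPM in Mix. Igfbp2, a carrier of insulin-like growth factors, was at 5.07, 6.94 and 16.5 CPM in vehicle and 41.9, 45.5 and 26.8 CPM in Mix, with an edgeR adjusted p of 0.422, and Jund, an AP-1 subunit, was at 116 CPM or more in Mix and lower in all vehicle livers, with a log2 difference of 0.87 and an edgeR adjusted p of 0.294. On the first principal component of the 9 female livers, the Mix livers lay between 0.93 and 5.15, the vehicle livers between -37.5 and -19.1, and the BPA livers between 21.2 and 28.9.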
